A study of Mus musculus with 4 samples.

Results

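The 9 genes described here were taken from a survey of RNA that came down with an antibody to DDX20, an RNA helicase of the SMN complex, in testis cells of 7-day-old C57BL/6 mice. They are the CDK inhibitor genes Cdkn1a, Cdkn1b, Cdkn2a, Cdkn2b, Cdkn2c and Cdkn2d, the p53 gene Trp53, and Mdm2 and Mdm4, which encode the main inhibitors of p53. They were chosen by name, through their Ensembl identifiers, among 55357 identifiers in the deposited table, and 9 of 9 passed the filter on low counts that left 17422 genes. The study has 2 groups of 2 libraries. The labels give crosslinking of the cells with 254 nm ultraviolet light for both. One holds RNA precipitated with an antibody to DDX20 (DDX20 RIP), whose catalogue number differs by 1 character between the labels of the 2 libraries, taken here as the same antibody. The other holds input RNA with no antibody, 10% of the total RNA. Both groups come from testis cells of the same strain and carry no other treatment. The labels do not say how many animals were used, whether they were pooled, or whether the replicates came from separate preparations, so the p-values may rest on technical variation alone. No precipitation with a control antibody was used here. A higher value in RIP means a higher level than in input after the scaling named, not binding by DDX20. It means a larger share of the RIP library only where total counts are used.

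The CDK inhibitors and p53 hold cells back from division, and Mdm2 and Mdm4 restrain p53. Proteins of the Ink4 group, encoded by Cdkn2a to Cdkn2d, bind CDK4 and CDK6 and keep them from D-type cyclins, while p21 (Cdkn1a) and p27 (Cdkn1b) bind complexes of cyclin and kinase, above all those of CDK2. The transcription factor p53 switches on Cdkn1a after DNA damage and also switches on Mdm2, whose product is a ubiquitin ligase that marks p53 for degradation. Mdm4 is a relative of Mdm2 that blocks p53 without a strong ligase activity of its own. In the testis p27 is known for limiting the division of Sertoli cells, and p53 for its part in the quality control of germ cells.

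Cdkn2a makes 2 unrelated proteins but is counted as 1 gene, so its deposited counts cannot be divided between them. The sequences at its splice junction show where the 2 transcripts differ and where they are the same. Each transcript has its own first exon, in lower case, and both join the same second exon, in capitals. The 45 bases on each side of the junction are given 5′ to 3′ on the coding (minus) strand of chromosome 4 in GRCm38, where the second exon begins at base 89276985.
Cdkn2a-201 (p16Ink4a, 168 codons): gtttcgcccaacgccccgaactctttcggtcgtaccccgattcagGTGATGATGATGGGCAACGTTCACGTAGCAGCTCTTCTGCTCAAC
Cdkn2a-202 (p19Arf, 169 codons): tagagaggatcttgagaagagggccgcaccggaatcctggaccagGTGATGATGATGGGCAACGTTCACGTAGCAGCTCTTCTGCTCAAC
The first coding exon holds 126 nt in the p16Ink4a transcript and 190 nt in the p19Arf transcript. The shared exon is thus entered at the start of a codon in the first and after 1 base of a codon in the second, and the same letters are read in 2 frames. From the second exon on, the transcripts are identical over 575 nt, and a count from there belongs to either. The p19Arf protein binds and blocks MDM2, so this locus feeds both the CDK arm and the p53 arm.

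Reads of other members can be told apart better. Between the principal transcripts of any 2 of the 9 genes the longest run of identical bases was 23 nt, shared by the coding sequences of Cdkn2a and Cdkn2b, against a read length of 150 nt. Trp53 and Mdm4 each have a processed pseudogene with a similar sequence. Trp53-ps matched 1170 nt of the Trp53 transcript at 94.957% identity but held only 2 and 4 counts in the input libraries and 0 and 0 in RIP. Mdm4-ps matched 4184 nt and 2020 nt of Mdm4 at 94.12% and 94.851% and held 2 and 4 counts in input and 2 and 2 in RIP. The kit does not mark strand. AC167363.2, on the other strand, shares 273 exonic nt with Cdkn1a and held 2, 0, 0 and 0 counts, and the pseudogene Gm29257, inside the span of Mdm4 but not on its exons, held 17, 13, 8 and 10 (input 1, input 2, RIP 1, RIP 2). Wrap53 starts 103 nt from Trp53 on the opposite strand and shares no exonic base with it in the annotation used.

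With scaling by the trimmed mean of M values (TMM), which sets libraries to a common level, the 3 genes of the p53 arm were higher in the precipitate and the 6 CDK inhibitor genes lay nearer to their input level. That contrast held for this scaling and not for each alternative: with total counts Mdm4 was not called and 4 inhibitors were called lower, and with an offset for coding length 9 of 9 genes were called higher, Cdkn2b and Cdkn2c by more than Mdm2. With TMM scaling Mdm2 rose by 1.96-fold, Trp53 by 1.47-fold and Mdm4 by 1.38-fold, though Mdm4 was called lower with an offset for exonic length. With the same scaling Cdkn2c rose by 1.21-fold among the 6 CDK inhibitor genes, Cdkn1b fell to 0.767 of its input level and Cdkn2a to 0.935, and 3 did not pass the test, and with total counts Cdkn2c was not called. By the quasi-likelihood test of edgeR, with p adjusted after Benjamini and Hochberg over 17422 genes, 4 of 9 members were higher and 2 of 9 lower at an adjusted p under 0.05, against 38.7% and 38.6% of all genes, so the count of calls is near the background. The median log2 fold change of the 9 was 0.13, beside -0.05 over all genes tested. Both RIP libraries lay above both input libraries for 4 members and below for 3, against 42.7% and 45.3% of all genes.

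**Figure D1:**
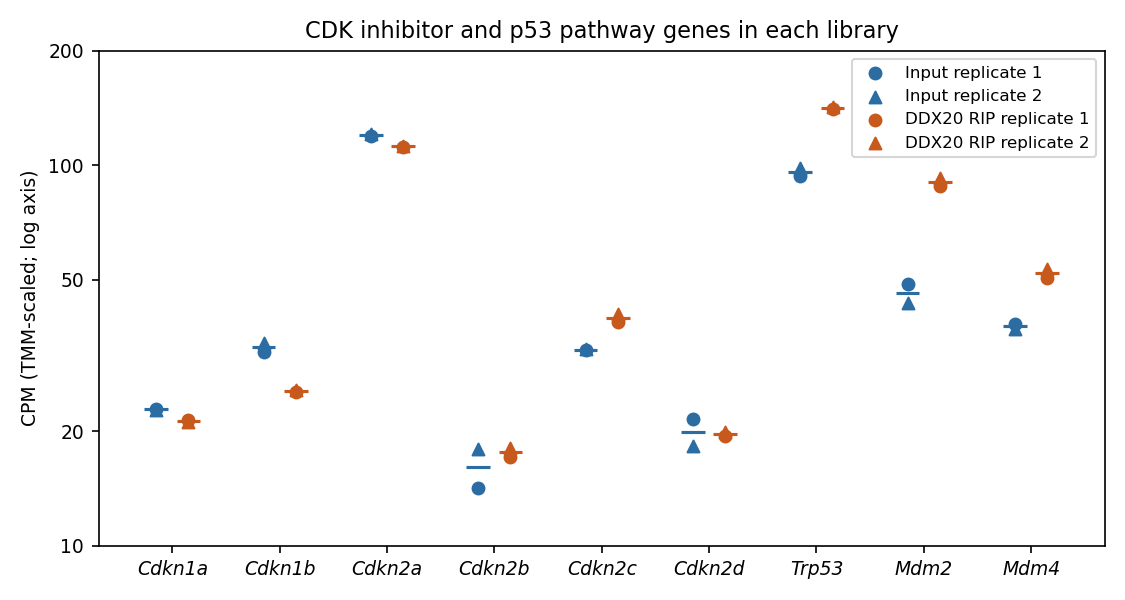
Level of each of the 9 genes in each library, in CPM (read counts relative to library size) after TMM scaling (log axis). Circles and triangles are replicates 1 and 2, bars are group means of 2 libraries, and the RIP libraries lie above input for Cdkn2c, Trp53, Mdm2 and Mdm4.

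Levels between genes were compared per kilobase of exonic length, in TMM-scaled CPM per kb. In the input Cdkn2a stood highest, at a mean of 102.5 CPM per kb, and Trp53 next at 23.7. Cdkn2d (12.6), Cdkn2c (12.2) and Cdkn2b (11.6) followed, and these neighbours did not differ beyond the spread of their libraries, which ran from 11.6 to 13.7, from 12.1 to 12.3 and from 10.2 to 12.9. Below them came Mdm2 (9.07), Cdkn1b (7.31), Cdkn1a (6.43) and Mdm4 (2.55), whose libraries did not overlap. Exonic length counts every annotated exon, and for Mdm4 it comes to 14798 nt, against 7105 nt in the principal transcript. Per kb of principal transcript, Cdkn2a (134.2) and Trp53 (54.2) still led, Mdm2 (14.9) came next with libraries that overlapped those of Cdkn2d (14.0), and Cdkn1a (10.98) stood above Cdkn1b (7.31). In RIP, per kb of exonic length, Mdm2 reached 17.8, behind Cdkn2a (95.9) and Trp53 (34.9).

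Mdm2 (chromosome 10, 117688875 to 117710758, minus strand, GRCm38) was counted 1206 and 1047 times in the input libraries and 2985 and 3141 times in RIP. That is 48.9 and 43.3 CPM in input and 88.2 and 92.9 CPM in RIP. Both RIP libraries lay well above both input libraries, and the gap was many times the difference between replicates. The log2 fold change was 0.97 ± 0.055 (SE, n = 2 per group; edgeR adjusted p = 1.71e-17). It was the one member that also passed a test against a change of 1.5-fold (edgeR adjusted p = 1.39e-08), and it remained higher with total counts, at 0.62.

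Trp53 (chromosome 11, 69580359 to 69591873, plus strand) stood at 93.7 and 98.2 CPM in input and 140.2 and 142.3 CPM in RIP, from 2311, 2371, 4744 and 4812 counts. The groups did not overlap. Its log2 fold change was 0.56 ± 0.040 (edgeR adjusted p = 1.07e-14), and 0.21 with total counts, where it was called too. Its neighbour Wrap53, which encodes a protein of Cajal bodies and telomerase, did not pass the test at -0.13 ± 0.065 (edgeR adjusted p = 0.0649), and per Trp53 count there were 0.438 Wrap53 counts in input and 0.271 in RIP on average, with no overlap.

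Mdm4 (chromosome 1, 132959484 to 133030561, minus strand) stood at 38.3 and 37.1 CPM in input and 50.6 and 53.4 CPM in RIP. Again the RIP libraries lay above the input libraries. The log2 fold change was 0.46 ± 0.063 (edgeR adjusted p = 4.45e-08). With total counts it was 0.12 and did not pass the test (edgeR adjusted p = 0.0948).

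Among the Cip/Kip inhibitors, Cdkn1b (chromosome 6, 134920401 to 134925513, plus strand) was the member with the clearest decrease. It stood at 32.4 and 34.2 CPM in input and 25.4 and 25.7 CPM in RIP, so that RIP lay below input without overlap. The log2 fold change was -0.38 ± 0.074 (edgeR adjusted p = 2.18e-05), and -0.73 with total counts. Cdkn1a (chromosome 17, 29090976 to 29100727, plus strand) stood at 22.9 and 22.8 CPM in input and 21.3 and 21.1 CPM in RIP. The libraries did not overlap, but the difference was small, at -0.10 ± 0.082, and did not pass the test (edgeR adjusted p = 0.248). An interval of 2 standard errors ran from -0.27 to 0.06. With total counts Cdkn1a was called lower, at -0.45 (edgeR adjusted p = 6.84e-06).

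The values of the 4 Ink4 genes changed with the scaling and the length offset. Cdkn2a (chromosome 4, 89274471 to 89294653, minus strand), the most counted inhibitor, stood at 119.4 and 120.8 CPM in input and 112.0 and 112.7 CPM in RIP. Its decrease, -0.10 ± 0.039, passed the test (edgeR adjusted p = 0.0253). Leaving out each of the 4 libraries in turn gave -0.09 to -0.05 and ended the call each time, as DESeq2 did (-0.07, adjusted p = 0.225). With total counts it was called lower at -0.44, and with the offsets for coding and exonic length it was called higher, at 0.70 and 1.03.

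Cdkn2c (p18Ink4c; chromosome 4, 109660876 to 109667189, minus strand) stood at 32.6 and 32.9 CPM in input and 38.7 and 40.8 CPM in RIP, with RIP above input. Its log2 fold change was 0.28 ± 0.068 with TMM scaling (edgeR adjusted p = 0.000456), and with total counts it stood at -0.07 and did not pass the test (edgeR adjusted p = 0.350). Cdkn2b and Cdkn2d overlapped between the groups. Cdkn2b (p15Ink4b), the neighbour of Cdkn2a on chromosome 4 (89306299 to 89311039, minus strand), stood at 14.2 and 17.9 CPM in input and 17.1 and 18.0 CPM in RIP. Its log2 fold change was 0.13 ± 0.10 (edgeR adjusted p = 0.240), with an interval of 2 standard errors from -0.07 to 0.34. Without input replicate 1 its value was -0.0074, and without input replicate 2 it was 0.31 and passed the test (edgeR adjusted p = 0.0393). With total counts it stood at -0.22 and was not called (edgeR adjusted p = 0.0560). Cdkn2d (p19Ink4d; chromosome 9, 21288410 to 21291407, minus strand) stood at 21.5 and 18.3 CPM in input and 19.4 and 19.9 CPM in RIP. Its value was -0.02 ± 0.091 (edgeR adjusted p = 0.841), and the interval ran from -0.20 to 0.16. With total counts it was called lower, at -0.37 (edgeR adjusted p = 0.000452). The 2 input libraries were the more spread pair for both genes, which rest on 350 to 531 counts in the input.

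How the libraries were scaled against each other decided part of this. The total counts were 21913977 and 21416567 for input and 38458014 and 37927689 for RIP, and under total-count scaling the median over all genes was -0.40 in place of -0.05. With it, 2 of 9 members were higher (Trp53 and Mdm2) and 4 of 9 lower (Cdkn1a, Cdkn1b, Cdkn2a and Cdkn2d), against 28.7% and 50.8% of all genes. The members' median was then -0.22. In CPM without TMM scaling, the 9 genes together held 477.3 and 479.9 in input and 451.3 and 469.8 in RIP.

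Ratios between members within a library need no scaling between libraries, but they still hold any difference that goes with gene length. With 2 libraries against 2, an exact permutation test cannot give a two-sided p under 0.333, so they are given as values. Per Trp53 count there were 0.522 and 0.442 Mdm2 counts in input and 0.629 and 0.653 in RIP. Per Mdm2 count there were 0.784 and 0.857 Mdm4 counts in input and 0.573 and 0.576 in RIP. The balance of the 2 p53 inhibitors thus lay further towards Mdm2 in the precipitate, and neither ratio overlapped between groups.

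Cdkn1a and Mdm2, both targets of p53, did not keep 1 ratio either. Per Mdm2 count there were 0.468 and 0.525 Cdkn1a counts in input and 0.242 and 0.228 in RIP. Per Trp53 count Cdkn1a stood at 0.244 and 0.232 in input and at 0.152 and 0.149 in RIP. Between the arms, Trp53 was counted less often than Cdkn2a in input (0.784 and 0.813 per Cdkn2a count) and more often in RIP (1.25 and 1.26). The log2 fold changes with the coding-length offset stood otherwise for these pairs. There Cdkn1a (0.74) lay above Mdm2 (0.65) and Trp53 (0.49), and Cdkn2a (0.70) lay above Trp53. Mdm2 still lay above Trp53 and Mdm4 (0.14), and Cdkn2c (1.08) above Cdkn2a. Within the Ink4 group, Cdkn2a made up 63.6% of the counts in each input library and 59.8% and 58.9% in RIP, and Cdkn2c 17.4% and 17.3% in input and 20.7% and 21.3% in RIP. The shares of Cdkn2b and Cdkn2d in that group overlapped between input and RIP.

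**Figure D2:**
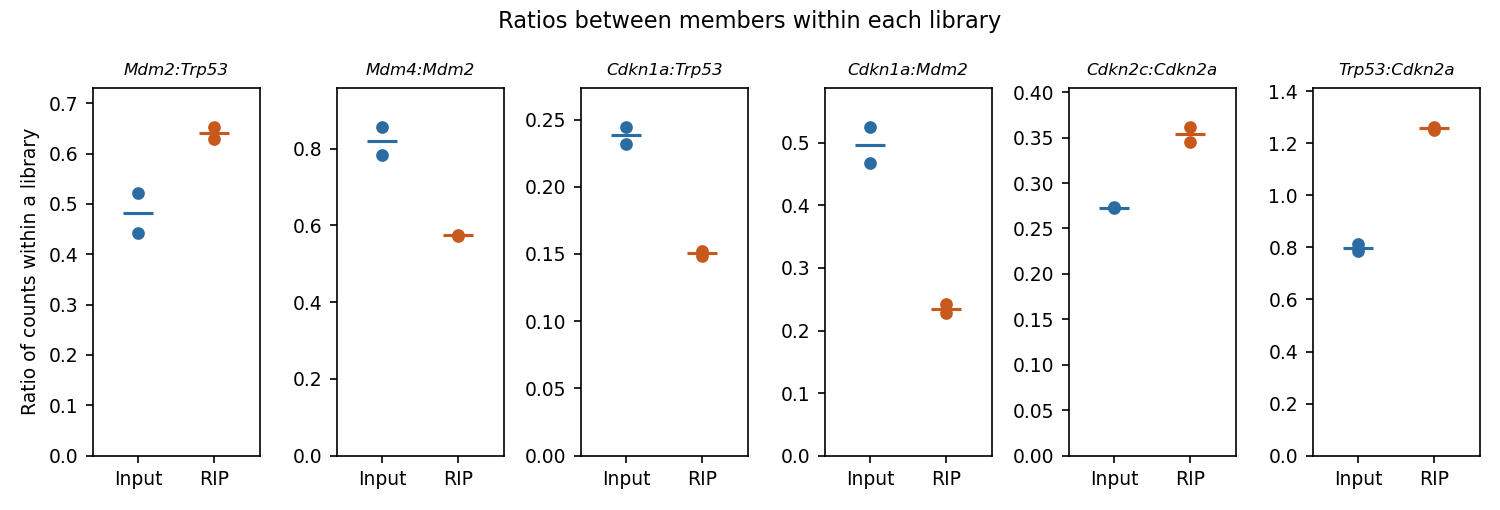
Ratio of the counts of 2 members within each library, for 6 pairs. Each point is a library, bars are means of 2 libraries, and axes start at 0; Mdm2 per Trp53 count is higher in both RIP libraries, and Mdm4 and Cdkn1a per Mdm2 count are lower.

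The members differ in a feature that went with the fold change across the whole table, the length of the coding sequence. Over the 14686 tested genes with an annotated coding length, log2 fold change and coding length correlated at a Spearman's rho of 0.637. Genes are not independent replicates, and all share the same 4 libraries. Within the 9 genes rho was 0.552. The 6 inhibitors are short, from 390 nt in Cdkn2b to 591 nt in Cdkn1b, whereas Trp53 has 1170 nt and Mdm2 and Mdm4 each have 1467 nt. At these lengths the smooth trend of all genes ran from -1.16 at Cdkn2b and -0.78 at Cdkn1b to -0.06 at Trp53 and 0.19 at Mdm2 and Mdm4.

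Set against that trend, each of the 9 members stood above it. The distance was 1.29 for Cdkn2b, 1.21 for Cdkn2c, 0.92 for Cdkn2d, 0.88 for Cdkn1a, 0.83 for Cdkn2a and 0.40 for Cdkn1b. It was 0.78 for Mdm2, 0.62 for Trp53 and 0.28 for Mdm4. The 6 inhibitors, near their input level with TMM scaling, thus lay above the trend of genes of their coding length, which was itself below 0. When the trend entered the edgeR fit as an offset, 9 of 9 members were called higher and 0 lower, against 32.1% and 41.1% of genes so fitted. The values ran from 0.14 for Mdm4 (edgeR adjusted p = 0.0454) and 0.27 for Cdkn1b to 1.08 for Cdkn2c and 1.15 for Cdkn2b. The trend was estimated from the same 4 libraries.

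**Figure D3:**
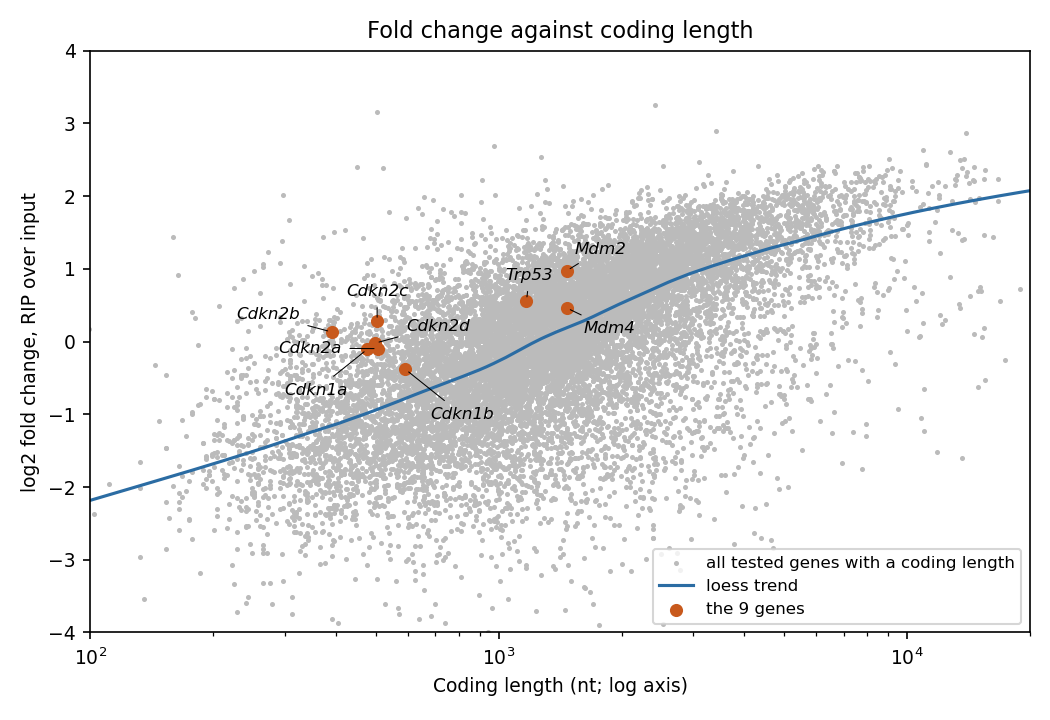
Log2 fold change of RIP over input (TMM scaling) against coding length (log axis) for tested genes with a coding length, in grey, with the loess trend as a line and the 9 genes in orange. Each of the 9 lies above the line, and 49 genes fall outside the axes.

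Length over all exons gave another picture for some members. After an offset for exonic length 6 of 9 members were higher and 2 of 9 lower, against 37.6% and 32.3% of genes. Cdkn2b (1.09), Cdkn2a (1.03), Cdkn2d (0.82), Mdm2 (0.68), Cdkn2c (0.58) and Trp53 (0.48) were higher. Cdkn1b stood at -0.58 and Mdm4 at -0.52, both called lower, and Cdkn1a at -0.06 did not pass the test. The principal transcript of Mdm4 has 5439 nt after its coding sequence and that of Cdkn1b 3442 nt, the longest such parts among the 9, against 258 nt in Cdkn2a. The offset counts every annotated exon, however, 14798 nt for Mdm4. Cdkn1a, with 1337 nt after its coding sequence, also moved, from 0.74 with the coding-length offset to -0.06. The part of untranslated sequence in these changes was not tested. The direction for Mdm4 and Cdkn1b differed with the length used, while Trp53 and Mdm2 were higher with TMM scaling, total counts and both offsets. The share of all genes higher in each of these fits was not counted. The coding sequence held 48.1% G and C in Mdm2, 43.2% in Mdm4 and 55.7% in Trp53, and between 51.8% in Cdkn2c and 67.9% in Cdkn2b among the inhibitors.

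**Figure D4:**
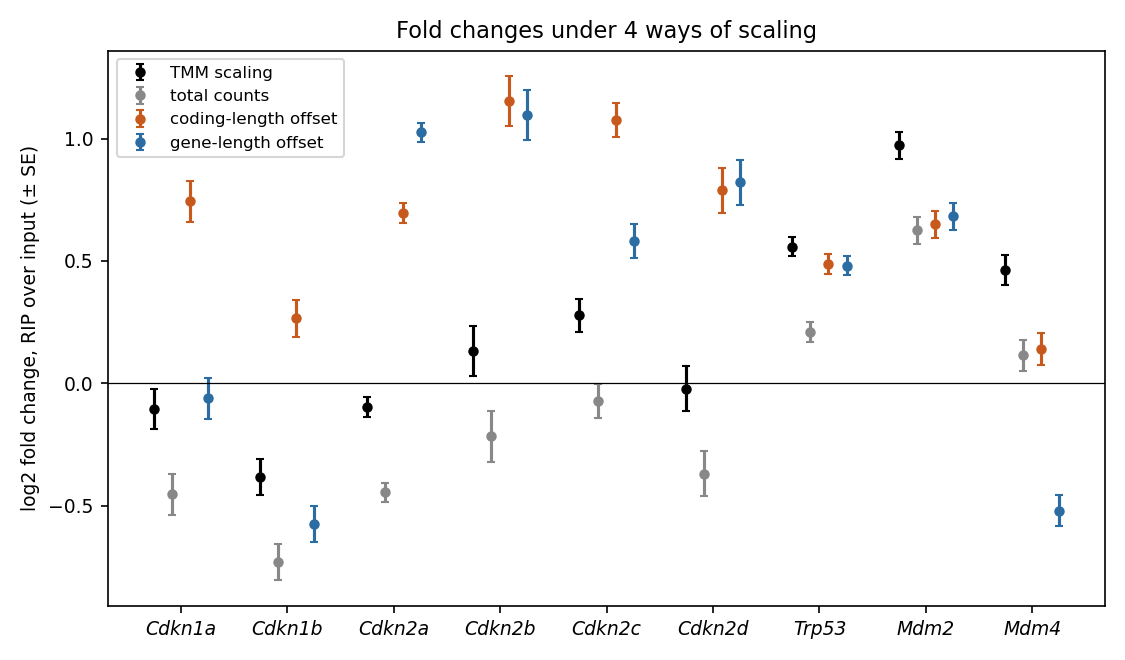
Log2 fold change of RIP over input for each gene (points; bars are ± 1 SE) with TMM scaling, with total counts, and with offsets for coding length and for exonic length. Trp53 and Mdm2 are above 0 in the 4 fits shown; Cdkn1b is above 0 only with the coding-length offset, and Mdm4 is below 0 with the exonic-length offset.

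Genes around the members were described from 4 lists, whose counts stand beside 38.7% of all genes higher and 38.6% lower with TMM scaling, and 28.7% and 50.8% with total counts. With the coding-length offset the shares were 32.1% and 41.1%, with a median of -0.11. With the exonic-length offset they were 37.6% and 32.3%, with a median of 0.03. Of 25 target genes of p53 11 rose and 9 fell, with a median of 0.05, beside -0.05 over all genes, and with total counts 6 rose and 14 fell. With TMM scaling these shares are near those of all genes. The most abundant that rose were the kinase gene Plk2, from 75.3 ± 5.97 to 189.0 ± 0.178 CPM (mean ± SD, n = 2), a log2 fold change of 1.33 (edgeR adjusted p = 1.41e-24), and Apaf1, the core of the apoptosome, at 1.69. The most abundant that fell were Ccng1, which encodes cyclin G1, at -0.66, and Bax, the pore-forming death effector, from 96.1 ± 0.139 to 40.6 ± 3.28 CPM at -1.24. The targets ranged from -1.30 to 1.69, with Cdkn1a at -0.10 and Mdm2 at 0.97. With the coding-length offset Plk2 stood at 0.64, Apaf1 at 0.42, Ccng1 at -0.39 and Bax at -0.57. Of the 25 targets 13 were then higher and 6 lower, with a median of 0.29. With the exonic-length offset 12 were higher and 8 lower, with a median of 0.20.

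Of the 23 tested partners and modifying enzymes of p53, out of 24 listed, 15 rose and 4 fell, with a median of 0.58, and with total counts 13 rose and 8 fell. Trp73, a relative of p53, did not pass the filter on low counts. Usp7, the deubiquitinase that stabilises MDM2 and p53, rose from 118.5 ± 2.86 to 390.0 ± 14.4 CPM, a log2 fold change of 1.72, and the acetyltransferase gene Ep300 rose by 1.83. Usp7 and Ep300 stood at 0.55 and 0.12 with the coding-length offset, and at 1.11 and 0.86 with the exonic-length offset. With TMM scaling Rpl5 (-1.35) and Rpl11 (-1.28), which encode ribosomal proteins that bind MDM2, fell. Whether reads of these genes were shared with pseudogenes was not tested. With the coding-length offset the list had 8 higher and 11 lower, beside 32.1% and 41.1% of genes so fitted, and a median of -0.12, beside -0.11. With the exonic-length offset it had 15 higher and 6 lower, beside 37.6% and 32.3%, and a median of 0.51, beside 0.03. The result for this list thus differed with the length used.

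Among the 12 kinases and cyclins that the inhibitors bind 5 rose and 2 fell, with a median of 0.04, and with total counts 3 rose and 9 fell. Cdk4, the main partner of Ink4 proteins beside Cdk6, fell from 357.8 ± 1.93 to 247.1 ± 0.222 CPM, at -0.53 (edgeR adjusted p = 3.66e-18). Cdk6, named after its values were seen, went the other way, from 74.9 to 179.5 CPM, at 1.26 (edgeR adjusted p = 1.57e-22). Ccne2, a cyclin of the G1/S step, fell by 0.52 on the log2 scale. Ccnd2, a D-type cyclin, rose by 0.57 but stood at -0.17 with the exonic-length offset. With TMM scaling Ccnb1, a mitotic cyclin, rose by 0.23, though it stood at -0.12 with total counts and was called lower there. Of the 12 genes 7 were higher and 3 lower with the coding-length offset, with a median of 0.21. With the exonic-length offset 4 were higher and 7 lower, with a median of -0.21.

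The last list holds other inhibitor genes and the machinery that degrades p27. Of its 10 genes 4 rose and 6 fell, with a median of -0.48, and with total counts 2 rose and 6 fell. With the coding-length offset 6 were higher and 2 lower, beside 32.1% and 41.1% of genes so fitted. The median was then 0.25, beside -0.11. With the exonic-length offset 3 were higher and 4 lower, beside 37.6% and 32.3%, and the median was -0.04, beside 0.03. Cdkn1c (p57), the remaining Cip/Kip gene, fell from 15.1 ± 1.16 to 3.90 ± 0.0420 CPM, at -1.95 ± 0.14 (edgeR adjusted p = 6.80e-15). Cdkn3, a phosphatase that acts on CDKs, fell by 2.02. Their coding sequences, of 1005 nt and 633 nt, are longer than those of the 6 inhibitors, and both fold changes lay below those of the 9 members, of which Cdkn1b had the lowest at -0.38.

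In the ligase SCF-Skp2, which marks p27 for degradation, the parts moved in both directions. The substrate receptor Skp2 rose by 0.62, though it stood at -0.0031 with the exonic-length offset, and the scaffold Cul1 rose by 1.25, and by 0.42 with the coding-length offset. The adaptor Skp1a (-0.74), the cofactor Cks1b (-0.46) and the ring subunit Rbx1 (-0.50) fell with TMM scaling, and these last 3 stood above 0 with the coding-length offset. With the exonic-length offset Cks1b stood at 0.69, whereas Skp1a (-0.24) and Rbx1 (-0.69) were called lower. Cdkn2aip, which encodes a binding partner of Arf, rose by 0.40, and Fbxo7, which encodes an F-box protein, by 0.36, and neither passed the test with total counts (0.05 and 0.01). Cdkn2aipnl, a relative of Cdkn2aip, fell by 0.55 with TMM scaling and was called higher, at 0.56, with the coding-length offset.

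**Figure D5:**
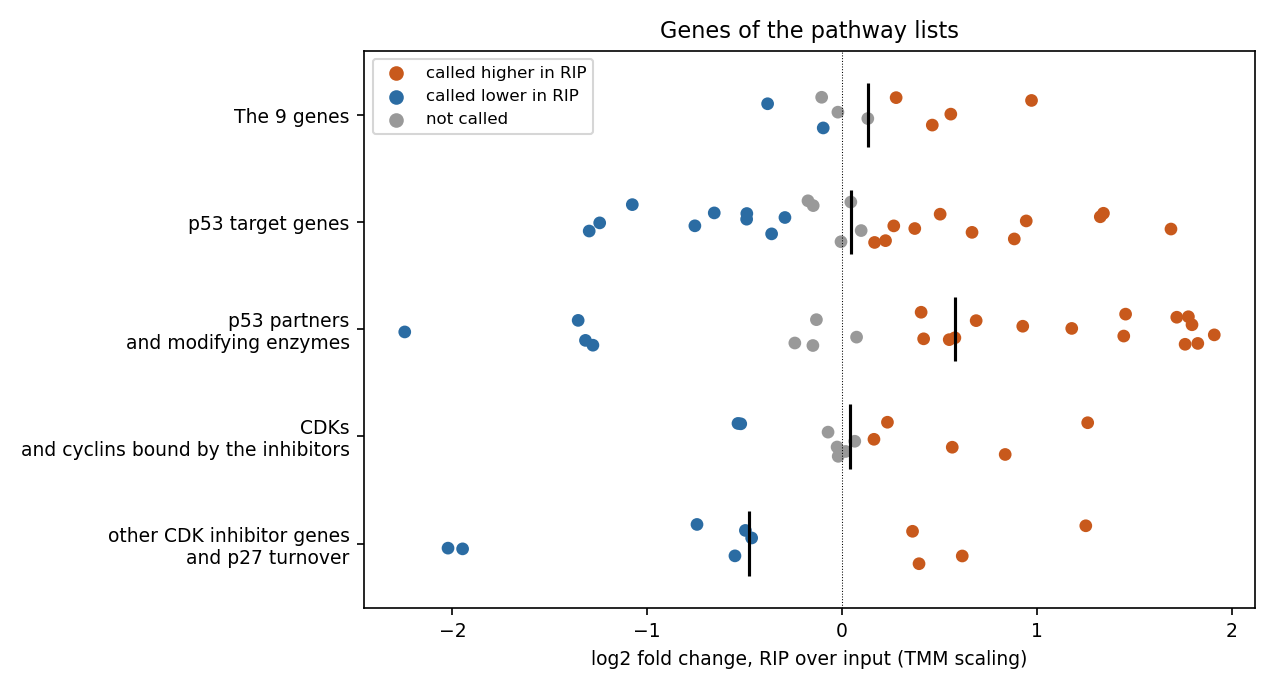
Log2 fold change of RIP over input (TMM scaling) for the 9 genes and for each tested gene of the 4 lists, with the median of each list as a bar. The partners and modifying enzymes of p53 have a median of 0.58, and the other 3 lists and the 9 genes have medians from -0.48 to 0.13.

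Markers of the cell types that a testis preparation can hold were measured beside these values. Summed over 8 Sertoli cell markers, the level was 2864 to 2893 CPM in input and 1947 to 1949 CPM in RIP, and over 8 germ cell markers 620.4 to 625.2 and 356.7 to 362.0 CPM. None of the markers listed had 0 counts in the input. The 5 Leydig cell markers (311.6 to 321.1 against 145.5 to 148.6 CPM), 4 stromal (798.3 to 814.5 against 571.2 to 580.2), 4 macrophage (101.0 to 103.8 against 30.0 to 31.2), 4 endothelial (88.4 to 89.5 against 32.5 to 33.9) and 4 red blood cell markers (247.4 to 251.2 against 71.7 to 72.0) were lower in RIP as well. By gene, 3 of 8 Sertoli and 3 of 8 germ cell markers rose and 4 of 8 of each fell, beside 38.7% and 38.6% of all genes. With total counts 1 Sertoli marker rose and 6 fell, 0 germ cell markers rose and 5 fell, and 0 stromal markers rose and 3 fell. With TMM scaling, among the rest 5 of 5 Leydig, 4 of 4 macrophage, 4 of 4 red blood cell, 3 of 4 endothelial and 2 of 4 stromal markers fell, and 1 stromal marker rose. These sums compare RIP with input RNA and do not measure numbers of cells or RNA per cell. The part of cell types in the values of the 9 genes was not tested. The message of Ddx20 itself rose by 0.96 ± 0.055 under TMM, but with the coding-length offset its value was 0.06 and it was not called (edgeR adjusted p = 0.317).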

How the data were processed

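RNA of 2 input and 2 DDX20 RIP libraries from mouse testis cells was sequenced as pairs of 150-nt reads. The deposited table holds raw counts per gene; per the submitters' processing notes the authors used Trimmomatic 0.36, cutadapt 4.1, STAR 2.7.2b, SAMtools and featureCounts on GRCm38. Annotation release and strand setting: not given in the sources used here. Symbols, lengths and sequences came from GENCODE M21, in which 52081 of 55357 identifiers (94.1%) had a symbol, matched without version.

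Total counts ran from 21416567 to 38458014 per library. Counts were fitted in R 4.3.3 with edgeR 4.0.16 (quasi-likelihood test, TMM scaling, its filter on low counts, Benjamini-Hochberg adjustment over all tested genes, threshold 0.05). Fold changes are RIP over input, and each SE is the fold change divided by the root of F. The trends with length are loess fits with a span of 0.3. Similar transcripts were sought with BLAST+ 2.17.0. The scripts were tested on simulated data. In all, 16 alternatives were run, DESeq2 1.42.0 and limma 3.58.1 (voom) among them. In each library 65.4% to 67.4% of the nonzero counts were even, and the alternative with halved counts divided each count by 2. Whether both reads of a pair were counted was not tested, so the counts printed may exceed the number of read pairs.

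The 9 genes and the lists were chosen with earlier results of these data known. From each of the 4 pathway lists the text names the 2 called genes of highest mean CPM in each direction, from the list of other inhibitors also its remaining tested genes, and beside these Ddx20 and genes that overlap a member or start next to it.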

Additional observations from a re-analysis of the deposited data

How the results depend on the processing

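With TMM scaling 4 members were higher and 2 lower, against 38.7% and 38.6% of all genes. The count of members higher was 2 with upper-quartile scaling (against 28.8% of all genes) and 2 with total counts (28.7%). It was 1 in the test against 1.5-fold (24.2%) and 9 with the coding-length offset (32.1%). The count lower was 4 with upper-quartile scaling (against 50.5% of all genes) and 4 with total counts (50.8%). It was 1 with RLE scaling (37.9%), 1 without a filter (20.4%) and 1 with DESeq2 (31.9%). In the 1.5-fold test (25.4%) and with the coding-length offset (41.1%) it was 0. The cause was not tested beyond the construction of each alternative.

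For the lists, the shares of all genes in the same settings are those given above. With halved counts 41.3% of all genes were lower, with the filter of 1 CPM 41.9%, and with the exonic-length offset 32.3%. Of the p53 targets (11 higher, 9 lower), 6 were higher and 14 lower with upper-quartile scaling and with total counts, and 5 and 3 in the 1.5-fold test. Of the p53 partners (15 higher, 4 lower), 8 were lower with upper-quartile scaling and with total counts, 7 with halved counts, and 8 were higher and 11 lower with the coding-length offset. Of the CDKs and cyclins (5 higher, 2 lower), 3 were higher and 9 lower with both of those scalings, 4 lower with the filter of 1 CPM, 2 higher and 0 lower in the 1.5-fold test, and 7 lower with the exonic-length offset. Of the other inhibitor and p27 turnover genes (4 higher, 6 lower), 2 were higher with both scalings and 1 higher and 3 lower in the 1.5-fold test. With the coding-length offset 6 were higher and 2 lower.

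Directions reversed as follows. With the coding-length offset Cdkn1a stood at 0.74, Cdkn1b at 0.27, Cdkn2a at 0.70, Cdkn2d at 0.79, Cdkn2aip at -0.074, Cdkn2aipnl at 0.56, Skp1a at 0.082, Cks1b at 0.95, Rbx1 at 0.67 and Fbxo7 at -0.027. With the exonic-length offset Cdkn2a stood at 1.03, Cdkn2d at 0.82, Mdm4 at -0.52, Ccnd2 at -0.17, Cdkn2aipnl at 0.081, Skp2 at -0.0031, Cks1b at 0.69, Fbxo7 at -0.080 and Wrap53 at 0.45. With upper-quartile scaling Cdkn2b stood at -0.21, Cdkn2c at -0.064 and Ccnb1 at -0.11, and with total counts at -0.22, -0.070 and -0.12. Without 1 replicate Cdkn2b ran from -0.0074 (input replicate 1) to 0.31 (input replicate 2). Cdkn2d stood at 0.0017 with RLE scaling, 0.033 without a filter, 0.0019 with DESeq2, 0.12 without input replicate 1, 0.035 without RIP replicate 1 and 0.0015 without RIP replicate 2, and without 1 replicate it ran from -0.13 to 0.12.

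With the replicate number as a block 4 members were higher and 2 lower, against 38.7% and 38.2% of all genes, and no member's call changed. The differences between replicates 1 and 2 correlated at 0.00777 between RIP and input over tested genes. That value cannot show whether equal numbers mark paired libraries, since pairs that differ little would also give a value near it. With all 4 libraries kept, the calls of Cdkn1a, Cdkn1b, Cdkn2a, Cdkn2b, Cdkn2c, Cdkn2d and Mdm4 differed between scalings and offsets. Only Trp53 and Mdm2 were called higher with each scaling and offset, and no control precipitation was used here.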
